A study of Mus musculus with 37 samples.

Results

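Cytochrome P450 enzymes are haem proteins that insert an oxygen atom into fatty acids, sterols, retinoids, steroids, drugs and toxins. In the kidney the proximal tubule is their main site: Cyp4 family enzymes add a hydroxyl group to the end of fatty acids and of arachidonic acid, Cyp2c and Cyp2j enzymes make epoxides of arachidonic acid that act on vessels and salt transport, and several members are known in mice to be higher in male than in female kidneys. Cyp4a10 and Cyp4a14 are textbook targets of PPARα, the receptor that senses fatty acids. The genes described are the 85 protein-coding genes, of 32108 genes in the deposited tables, whose symbol has the form Cyp, number, letters, number, with the vitamin D enzymes Cyp27b1 and Cyp24a1 left out. The rule also passes over Cyp51, and it used no measured value. By chromosome, 17 of the genes lie on chromosome 19, 15 on chromosome 4, 12 on chromosome 7 and 11 on chromosome 17, and many are neighbouring copies of each other.

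The data are RNA-seq libraries of RNA on podocyte ribosomes, isolated by translating ribosome affinity purification (TRAP), from 2 models of diabetes in C57BL/6 mice. The type 2 model compared eNOS-/- db/db mice, which lack endothelial nitric oxide synthase and carry the db/db leptin receptor mutation, with eNOS-/- mice, so both arms lack eNOS. It had 5 diabetic and 5 control libraries at age 3 months, and 3 and 4 at 6 months. The type 1 model compared mice given streptozotocin (STZ), a toxin of insulin-producing cells, with mice given no STZ, and no eNOS genotype is given for it. It had 5 diabetic and 4 control libraries at 3 weeks of STZ (age 3 months), and 5 and 5 at 24 weeks (age 8 months). One library of total RNA from the whole kidney of an eNOS-/- mouse at 3 months had no replicate. STZ and diabetes cannot be told apart in the type 1 model, and no label ties a replicate to its own animal, so p-values reflect only how far these libraries spread.

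The TRAP libraries held 6702120 to 37786025 counts, and the kidney library held 28033680. The 12 podocyte markers summed to 3989 to 40575 CPM (counts per 1000000 counts of the library) in TRAP, against 451 CPM in whole kidney. The 20 proximal tubule markers summed to 4886 to 19163 CPM in TRAP, against 27537 CPM in whole kidney, and none of them was at 0 in any group, so tubular RNA was present in every TRAP library. In TRAP RNA, fewer cells of a type and less RNA per cell cannot be told apart. Library 3 of the diabetic 6-month group (6702120 counts, 16822 genes detected), libraries 4 and 5 of the diabetic 3-month group and library 4 of the STZ 3-week group (14320 genes detected) stood apart from their groups on the first principal component. The Y-linked gene Ddx3y had 36.4 to 115 CPM in the 36 TRAP libraries. Xist exceeded 1 CPM in 1 of them, library 3 of the diabetic 6-month group (4.33 CPM), where Ddx3y had 62.7 CPM.

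The genes that moved the same way in both models are shown first by sequence. For the 4 of them with an entry in the RefSeq promoter table used here, the 250 bases upstream of the transcript start (GRCm38.p6) are printed, since these genes changed together in all 4 comparisons of diabetic with control libraries. They lie at chr4:115647722-115647971 on the minus strand (Cyp4b1), chr7:140763569-140763818 on the plus strand (Cyp2e1), chr4:96077548-96077797 on the minus strand (Cyp2j13) and chr7:26306942-26307191 on the plus strand (Cyp2a4), and each ends at the base before the RefSeq start. For Cyp2e1 the last 80 of these bases lie inside the gene as the deposited table places it. Cyp7b1 and Cyp4a14 belong to the same set. Both strands were searched for an androgen receptor half-site (TGTTCT), a nuclear receptor half-site (AGGTCA), a dioxin response core (GCGTG) and an HNF4 motif (CAAAGTCCA), none of which overlaps another here. Capitals mark the matches found.
Cyp4b1: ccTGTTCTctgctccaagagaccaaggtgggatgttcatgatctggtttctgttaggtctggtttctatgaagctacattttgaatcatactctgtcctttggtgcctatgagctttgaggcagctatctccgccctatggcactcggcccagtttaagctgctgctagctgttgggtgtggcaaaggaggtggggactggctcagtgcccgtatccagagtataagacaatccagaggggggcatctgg
Cyp2e1: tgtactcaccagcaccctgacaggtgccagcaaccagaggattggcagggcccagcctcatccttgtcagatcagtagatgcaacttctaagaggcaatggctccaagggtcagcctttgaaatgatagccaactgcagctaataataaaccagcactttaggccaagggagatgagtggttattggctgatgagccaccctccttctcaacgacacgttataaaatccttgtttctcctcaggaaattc
Cyp2j13: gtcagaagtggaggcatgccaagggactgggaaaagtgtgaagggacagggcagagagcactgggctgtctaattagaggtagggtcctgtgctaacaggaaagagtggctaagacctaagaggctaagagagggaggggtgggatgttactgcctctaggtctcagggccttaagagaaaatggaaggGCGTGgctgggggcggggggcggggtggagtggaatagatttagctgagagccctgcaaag
Cyp2a4: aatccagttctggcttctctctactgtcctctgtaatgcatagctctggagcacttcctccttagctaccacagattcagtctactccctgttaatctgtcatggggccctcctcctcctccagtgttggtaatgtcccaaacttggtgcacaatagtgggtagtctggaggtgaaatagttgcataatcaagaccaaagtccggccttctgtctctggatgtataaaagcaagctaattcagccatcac

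The 4 windows shared none of the 4 motifs. Cyp4b1 held 1 androgen receptor half-site, which begins 248 bases before the start, and Cyp2j13 held 1 dioxin response core, which begins 61 bases before it. Of the 85 genes, 66 had a promoter in the table. The androgen receptor half-site was in 22.7% of these 66, against 16.1% of all 32851 promoters, the nuclear receptor half-site in 18.2%, against 14%, and the dioxin core in 21.2%, against 28.2%. The HNF4 motif, named for a receptor of liver and proximal tubule, was in 7 of the 66 (10.6%), against 0.4% of all promoters. Those 7, named for this match, were Cyp2c40, Cyp2c65, Cyp2c67, Cyp2c68 and Cyp2c69, which are related copies on chromosome 19, with Cyp3a11 and Cyp8b1. Of these 7, only Cyp2c69 had enough counts to be tested, in 2 of the 4 diabetic comparisons, and it was not called. That none of the 7 was called below therefore says nothing of the motif. A match describes letters, not a binding site.

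The P450 RNA of these samples came from few of the 85 genes. Of the 85, 4 had no count in any of the 36 TRAP libraries, 28 had a count in all of them, and 31 averaged at least 1 CPM. The 3 highest genes held 51.4% of the summed P450 CPM over all 36 TRAP libraries, diabetic and control together. In the whole kidney of a control the 3 highest held 64.5%, so the 2 shares are not of matched mice. In the 5 control TRAP libraries at 3 months Cyp4b1, Cyp2e1 and Cyp2j5 averaged 624, 440 and 328 CPM of a summed 2142 CPM. Per length (FPKM, the authors' deposited values), the order over the 36 TRAP libraries began with Cyp2e1 (mean 181 FPKM), which oxidises ethanol, acetone and small toxins, then Cyp4b1 (166), a fatty acid and toxin oxidase, and Cyp2j5 (116), an arachidonic acid epoxygenase. Cyp2a4 (57.1), known in mice as a testosterone 15α-hydroxylase, Cyp4a10 (52.7), Cyp4a14 (39.0), Cyp2d26 (34.6), Cyp4a31 (29.9), Cyp2d9 (26.4) and Cyp2a5 (22.8), a coumarin hydroxylase, followed. In whole kidney the order was Cyp4b1 (739 FPKM), Cyp2e1 (691), Cyp2j5 (322), Cyp2a4 (266), Cyp4a31 (89.9), Cyp2a5 (88.2), Cyp4a10 (85.6), Cyp2d9 (81.6), Cyp2j13 (67.3) and Cyp2j11 (44.6). The kidney order rests on 1 library, and neighbours such as Cyp2a5 and Cyp4a10 differed by less than the spread of the TRAP replicates. The TRAP order pools diabetic and control libraries, while the kidney is that of a control. In the 5 control TRAP libraries at 3 months Cyp4b1 averaged 276 ± 57.6 FPKM, Cyp2e1 241 ± 61.9 FPKM and Cyp4a14 only 3.57 ± 0.864 FPKM (SD).

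Most P450 genes were lower in podocyte TRAP than in whole kidney. Ratios set the 5 eNOS-/- control TRAP libraries at 3 months against the kidney library, on CPM plus 0.5, for the 42 P450 genes with a mean of at least 10 counts in either. Of these, 33 were lower and 9 higher in TRAP. At least 2-fold lower were 19 (45.2%), against 8.64% of 16875 genes, and at least 2-fold higher were 2 (4.76%), against 9.35%. A gene can enter through the side where it is high, among the P450 genes and among all genes alike. The 2 higher genes, Cyp26a1 and Cyp2t4, had kidney counts of 0 and 5. Cyp1a1, among the 19 lower, had 41 counts in kidney and 4 to 17 in these TRAP libraries. The median log2 ratio was -0.95 for the P450 genes and -0.05 for all genes. With 1 kidney library no test was possible, and it was made from total RNA, while the labels give polyA RNA for TRAP.

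Cyp4b1 averaged 624 ± 130 CPM in TRAP (SD, n = 5), against 1667 CPM in whole kidney. Cyp2e1 averaged 440 ± 113 CPM in TRAP, against 1263 CPM in kidney, and Cyp2j5 averaged 328 ± 40 CPM, against 754 CPM. The lowest ratios of TRAP to kidney were those of Cyp2a5 (0.167), Cyp4a31 (0.230), the renal epoxygenase Cyp2c44 (0.262), Cyp2d9 (0.268) and Cyp4a10 (0.273). The proximal tubule markers as a sum were lower in TRAP as well, at 8728 to 12867 CPM, against 27537 CPM in kidney.

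A few P450 genes stood higher in TRAP than in kidney. Cyp26a1, which breaks down retinoic acid, averaged 1.69 CPM in TRAP (0.296 to 3.19 CPM across libraries) and had 0 counts in kidney. That puts the TRAP mean, but not each library, at least 15.8-fold higher (floor of 3 counts in the kidney library, 0.107 CPM). With 0.5 added to both, the ratio of Cyp26a1 was 4.38. Cyp2t4 had a ratio of 2.19 on a kidney count of 5, and its log2 ratio was 1.13 with 0.5 added and 1.97 with 0.1 added. Cyp2s1, which oxidises retinoids, averaged 34.0 ± 2.93 CPM in TRAP, against 17.5 CPM in kidney. Cyp27a1, the mitochondrial sterol 27-hydroxylase, averaged 38.7 ± 4.23 CPM, against 22.9 CPM, Cyp4v3, a fatty acid hydroxylase, averaged 7.67 ± 1.43 CPM, against 4.89 CPM, and Cyp1b1, an oxidase of oestrogens and polycyclic hydrocarbons, averaged 55.4 ± 10.8 CPM, against 39.1 CPM. For Cyp2s1 and Cyp27a1 the lowest TRAP library lay above the upper end of the kidney's exact 95% Poisson interval, which covers counting error only. For Cyp4v3 the lowest TRAP library, at 5.51 CPM, lay inside the kidney's interval of 4.10 to 5.78 CPM, and for Cyp1b1, at 38.6 CPM, inside 36.8 to 41.4 CPM.

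**Figure D1:**
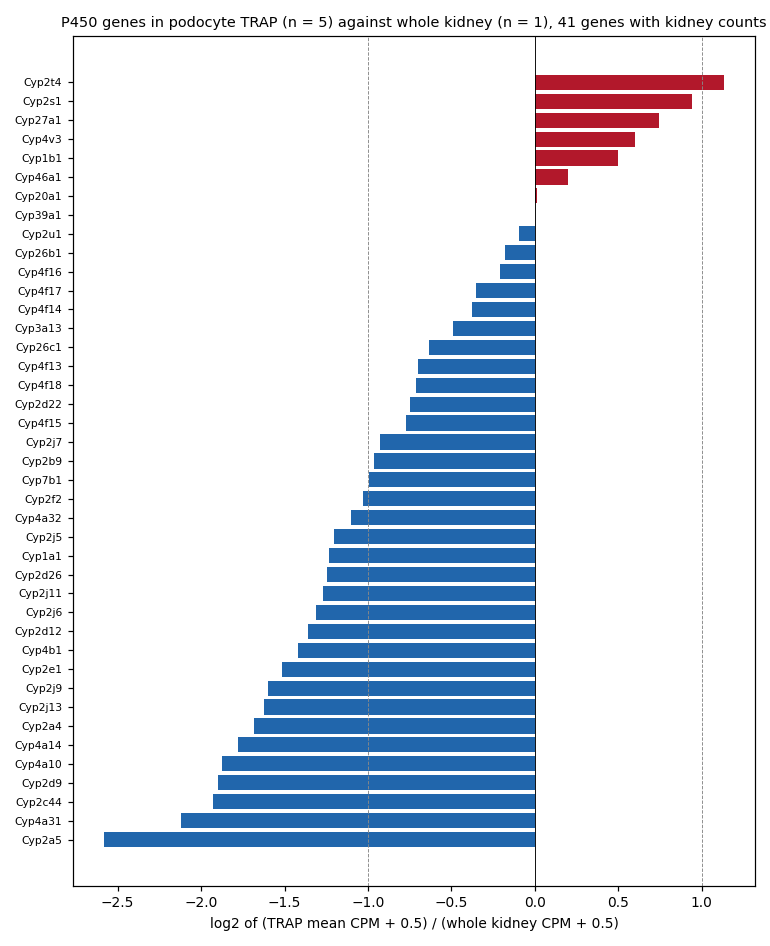
Log2 ratio of the mean CPM of 5 control TRAP libraries to the CPM of 1 whole-kidney library (0.5 added to both), 1 bar per P450 gene, with dashed lines at a 2-fold difference. Bars to the left are lower in TRAP; Cyp2a5 is lowest and Cyp2t4 highest, and Cyp26a1, at 0 counts in kidney, is not drawn.

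Diabetic libraries differed from controls in P450 genes in both directions, and more often downward. In the type 2 model at 3 months 41 P450 genes passed the filter on low counts, and 2 were higher and 6 lower in diabetic libraries (19.5% called at an edgeR adjusted p under 0.05, against 3.99% of all genes tested; 2.03% higher and 1.96% lower). At 6 months 5 were higher and 10 lower of 41 (36.6%, against 22.9%; 11.2% higher and 11.7% lower). In the type 1 model at 3 weeks 5 were higher and 7 lower of 38 (31.6%, against 6.5%; 3.78% higher and 2.72% lower). At 24 weeks 2 were higher and 5 lower of 38 (18.4%, against 0.897%; 0.448% higher and 0.448% lower). As a whole the P450 genes had median log2 changes of -0.015, -0.153, -0.27 and 0.123, beside 0.036, -0.01, 0.002 and -0.013 for all genes. The other 44 of the 85 genes were tested in none of the 4, and a gene can pass the filter through the group where it is high. The 6-month count was 9, with 1 higher and 8 lower, without diabetic library 3, and the share of all genes called without it is not given here.

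The 4 diabetic comparisons share no library. Of the 38 P450 genes tested in all 4, 5 were lower in all 4 (Cyp4b1, Cyp2e1, Cyp7b1, Cyp2j13 and Cyp2a4) and 1 was higher in all 4 (Cyp4a14). Among all 15965 genes tested in all 4, 0.276% were lower and 0.106% higher throughout. A further 14 P450 genes were called in at least 1 comparison, and none of the 20 was called in opposite directions. The 6 stayed called in each comparison under every alternative processing tried there. Where the groups of a called gene are said below not to overlap, the gene was picked by its call, so that separation carries no test. The share of all genes with groups apart was not computed.

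**Figure D2:**
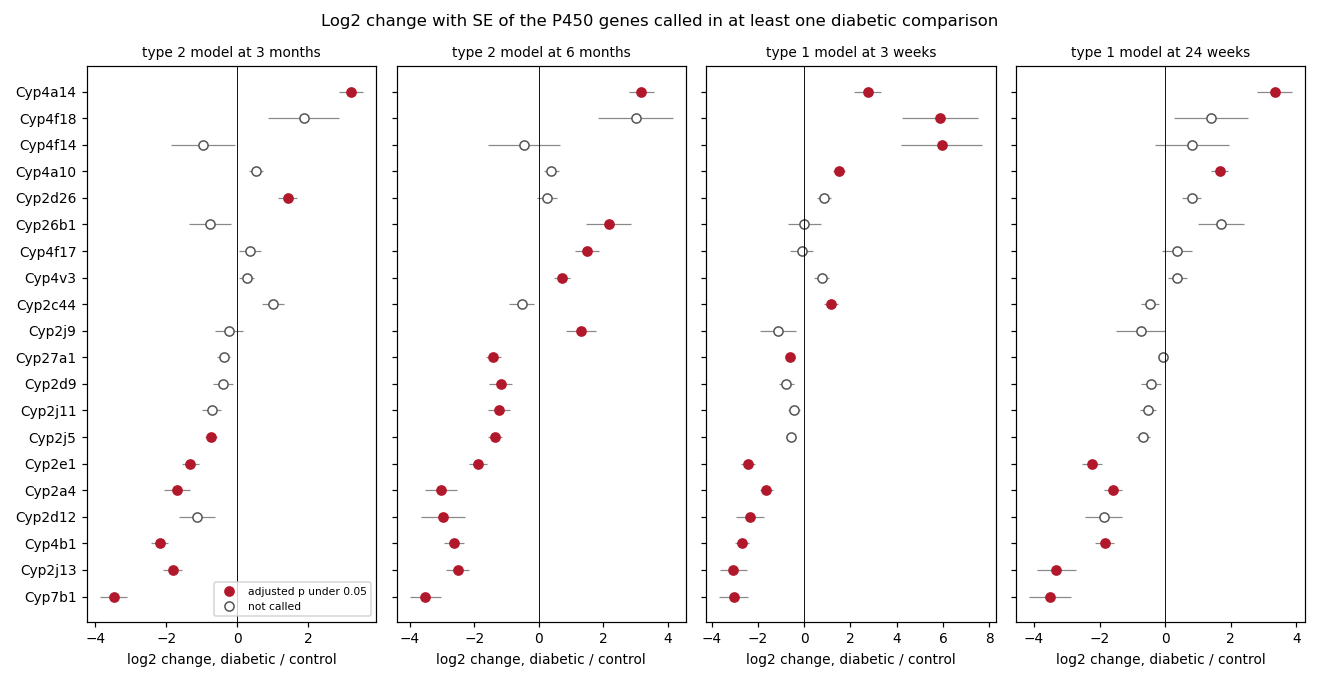
Log2 change, diabetic over control, with its standard error, for the 20 P450 genes called at least once, in 4 panels by comparison; filled points passed an edgeR adjusted p of 0.05 and open points did not. Cyp4a14 at the top is higher in all 4 panels, and Cyp7b1, Cyp2j13, Cyp4b1, Cyp2a4 and Cyp2e1 are lower in all 4.

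Among the fatty acid hydroxylases of family 4, 16 genes with 11 tested, the neighbouring genes Cyp4a14 and Cyp4a10 rose and Cyp4b1 fell. Cyp4a14 (chromosome 4, 115486200 to 115496142), which hydroxylates the end of fatty acids, had 75.3, 76.8, 131, 119 and 57.3 CPM in eNOS-/- db/db mice at 3 months, against 8.64, 7.62, 12.8, 7.26 and 10.2 CPM in eNOS-/- mice. At 6 months it had 244, 165 and 360 CPM in eNOS-/- db/db mice, against 26.7, 8.43, 17.7 and 42.8 CPM in eNOS-/- mice. Every diabetic library lay above every control library at both ages. In the type 1 model it had 299, 241, 199, 159 and 134 CPM at 3 weeks of STZ, against 19.5, 60.4, 8.85 and 19.9 CPM without STZ. At 24 weeks it had 127, 263, 338, 82.4 and 226 CPM with STZ, against 34.9, 14.7, 6.51, 14.3 and 33.1 CPM without. The groups again did not overlap, although the control libraries spread widely. The log2 changes were 3.20 ± 0.34, 3.19 ± 0.39, 2.74 ± 0.57 and 3.33 ± 0.53 in that order (SE; edgeR adjusted p from 2.3e-05 to 0.00638). Its closest P450 transcript was 80.5% identical.

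Cyp4a10, its neighbour on chromosome 4, was called in the type 1 model. It averaged 238 ± 57.8 CPM at 3 weeks of STZ and 75.2 ± 16.0 CPM without (SD, n = 5 and 4), a log2 change of 1.51 (edgeR adjusted p = 0.00172). At 24 weeks it averaged 199 ± 79.8 CPM with STZ and 63.4 ± 14.4 CPM without, a log2 change of 1.66 (edgeR adjusted p = 0.00146). In the type 2 model it averaged 75.6 ± 24.9 CPM in diabetic and 48.9 ± 7.48 CPM in control libraries at 3 months, and 103 ± 10.4 CPM and 67.0 ± 21.1 CPM at 6 months. The type 2 log2 changes of 0.53 and 0.39 did not pass (edgeR adjusted p = 0.155 and 0.24). Every diabetic library lay above every control at both ages, but narrowly. The lowest diabetic library had 27.5 FPKM and the highest control 27.0 FPKM at 3 months, and 45.6 and 43.2 FPKM at 6 months. The share of all genes with groups apart was not computed. The difference between the models was -1.0 early and -1.27 late on the log2 scale and did not pass either (edgeR adjusted p = 0.145 and 0.0828); the late one passed without STZ library 4. Cyp4a10 is 97.2% identical to Cyp4a32, and Cyp4a31 is 96.0% identical to Cyp4a32, so reads could be split among these 3. Cyp4a31 had log2 changes of -0.015 to 0.602 and was not called.

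Cyp4b1 (chromosome 4, 115624725 to 115647723), the most abundant P450 of the kidney library, had 137, 77.7, 186, 115 and 209 CPM in eNOS-/- db/db mice at 3 months, against 499, 516, 658, 822 and 624 CPM in eNOS-/- mice. At 6 months it had 138, 79.0 and 104 CPM, against 435, 582, 625 and 614 CPM. At 3 weeks of STZ it had 187, 109, 113, 78.8 and 118 CPM, against 524, 976, 830 and 500 CPM without STZ. At 24 weeks it had 204, 140, 237, 133 and 90.6 CPM with STZ, against 432, 567, 813, 575 and 453 CPM without. The highest diabetic library of all 4 comparisons, at 237 CPM, lay below the lowest control library, at 432 CPM. The log2 changes were -2.19 ± 0.24, -2.62 ± 0.31, -2.70 ± 0.30 and -1.84 ± 0.28 in that order (SE; edgeR adjusted p from 1.87e-05 to 0.00177).

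Other family 4 calls rested on fewer reads. Cyp4f14 and Cyp4f18, which act on leukotrienes in mice, were called higher at 3 weeks of STZ. Cyp4f14 had 48 counts over the 5 STZ libraries and 0 over the 4 controls, which makes it at least 11.9-fold higher (floor of 3 counts over the control group). Cyp4f18 had 141 counts against 1, a ratio of 105 (95% counting interval 18.6 to 4186), but 2 of the 5 STZ libraries were at 0. The STZ libraries detected 14320 to 21050 genes and the controls 15558 to 16362 at this time, and the part of that difference in these calls was not tested. The calls of Cyp4f14 and Cyp4f18 were lost in 10 of 13 and 5 of 14 alternatives: Cyp4f14 without any 1 library but STZ library 4, and Cyp4f18 without control library 1, 2 or 4 or STZ library 2 or 3. At 6 months in the type 2 model Cyp4f17 rose (log2 change 1.5, edgeR adjusted p = 0.00916), with 6.63, 5.28 and 24.2 CPM in diabetic libraries, against 2.96, 4.11, 3.58 and 3.32 CPM in controls. Cyp4v3 rose to 14.3, 13.3 and 14.8 CPM, against 6.56, 7.88, 7.2 and 7.19 CPM in controls, a log2 change of 0.73 (edgeR adjusted p = 0.0406). Without diabetic library 3 the log2 change of Cyp4f17 was 0.565 and was not called, and its call was also lost with a replicate block and in the fit of the compared groups only. Cyp4v3 was not called without any 1 of the 7 libraries.

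**Figure D3:**
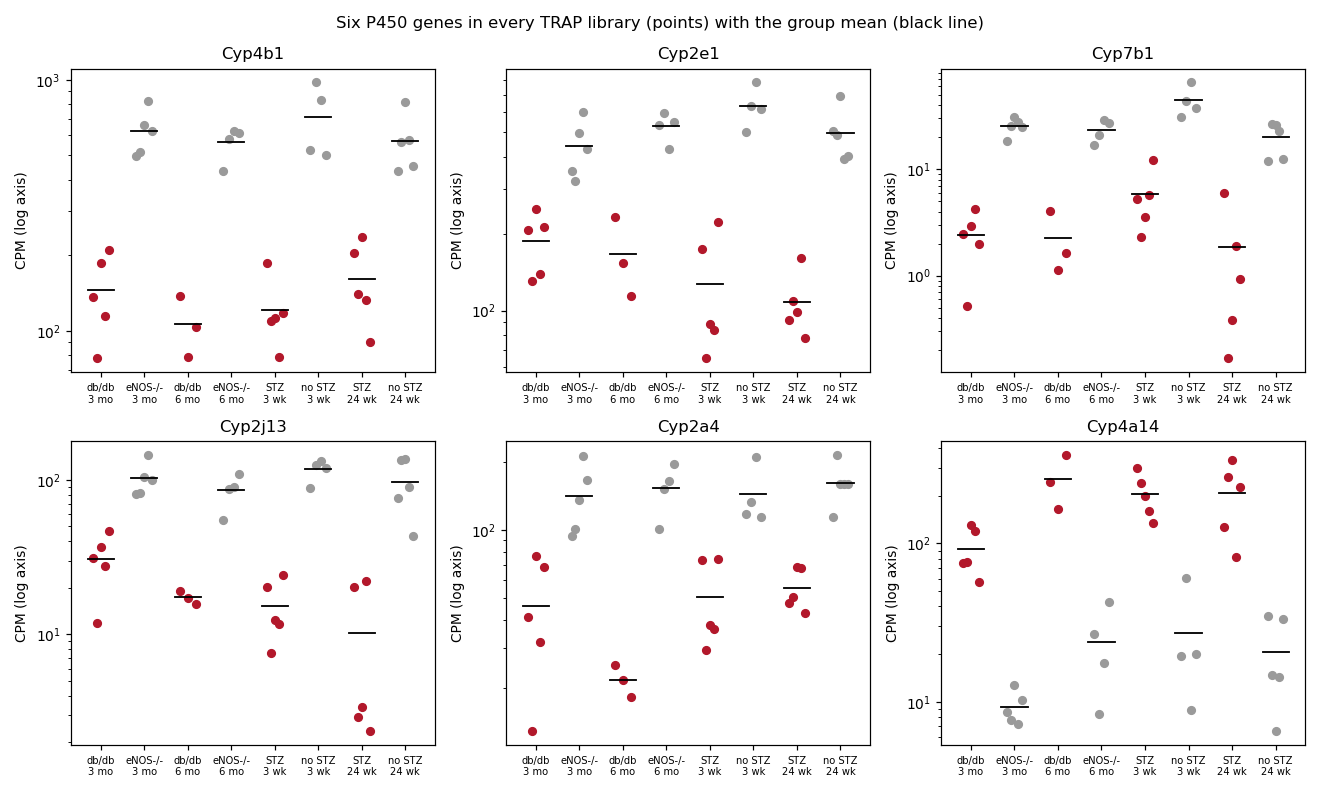
CPM on a log axis for the 6 P450 genes called in the same direction in all 4 diabetic comparisons; points are TRAP libraries (red diabetic, grey control) and black lines are group means. In each panel the diabetic libraries of a pair lie all below their controls, or all above for Cyp4a14. The genes were picked by their calls, so this separation carries no test.

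Among the epoxygenase families Cyp2c and Cyp2j, 22 genes with 8 tested in type 2 and 7 in type 1, Cyp2j13 fell throughout. Cyp2j13 (chromosome 4, 96027534 to 96077546) had 31.1, 11.8, 36.5, 27.6 and 46.3 CPM in eNOS-/- db/db mice at 3 months, against 81.1, 81.9, 104, 144 and 99.5 CPM in eNOS-/- mice. At 6 months it had 19.1, 17.3 and 15.7 CPM, against 54.9, 87.4, 89.8 and 109 CPM. No diabetic library reached the lowest control. At 3 weeks of STZ it had 20.1, 7.61, 12.4, 11.6 and 24.3 CPM, against 88.7, 125, 133 and 120 CPM without STZ. Cyp2j13 at 24 weeks had 20.1, 2.93, 3.38, 22.1 and 2.36 CPM with STZ, against 76.5, 135, 136, 89.5 and 43.2 CPM without. The STZ libraries at 24 weeks fell into 2 near 20 CPM and 3 near 3 CPM, all under the controls. The log2 changes were -1.83 ± 0.27, -2.51 ± 0.35, -3.06 ± 0.59 and -3.31 ± 0.58 (SE; edgeR adjusted p from 0.000207 to 0.00635).

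Cyp2j5, the most abundant of this group per length, fell in the type 2 model. It averaged 209 ± 43.0 CPM in diabetic and 328 ± 40 CPM in control libraries at 3 months (log2 change -0.74, edgeR adjusted p = 0.0199), and 134 ± 42.7 CPM and 296 ± 49.3 CPM at 6 months (log2 change -1.36, edgeR adjusted p = 0.000494). In the type 1 model it averaged 290 ± 96.1 CPM with STZ and 392 ± 79.7 CPM without at 3 weeks, and 195 ± 29.7 CPM and 305 ± 50.3 CPM at 24 weeks (edgeR adjusted p = 0.123 and 0.137). The 3-month call was lost in 7 of 17 alternatives, among them without diabetic library 2 or 4 and without control library 3, 4 or 5. At 6 months Cyp2j11 fell to 27.1, 14.5 and 7.76 CPM, against 29.5, 28.0, 35.6 and 42.3 CPM in controls (log2 change -1.23, edgeR adjusted p = 0.013), and Cyp2j9 rose to 5.37, 5.05 and 10.7 CPM, against 3.84, 2.87, 1.19 and 1.42 CPM (log2 change 1.32, edgeR adjusted p = 0.0473). Both calls were lost without diabetic library 3, and that of Cyp2j9 also without diabetic library 1 or control library 2, 3 or 4. Cyp2c44 rose at 3 weeks of STZ to 19.2, 12.8, 17, 22.3 and 16.8 CPM, against 7.95, 4.38, 7.93 and 8.95 CPM without STZ (log2 change 1.16, edgeR adjusted p = 0.022), a call lost without control library 2. It was also higher in the untreated controls of the 24-week group, at 16.7, 22.8, 20, 18.8 and 32.7 CPM, than in those of the 3-week group (log2 change 1.54, edgeR adjusted p = 0.00684). Cyp2c44 was the 1 gene of 38 (2.63%, against 3.7% of all genes, 2.16% higher and 1.55% lower) to differ with age in these controls.

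Of the families that act mainly on drugs and toxins, 30 genes with 14 tested in type 2 and 12 in type 1, Cyp2e1 and Cyp2a4 fell throughout. Cyp2e1 (chromosome 7, 140763739 to 140774975) had 207, 130, 249, 139 and 213 CPM in eNOS-/- db/db mice at 3 months, against 351, 323, 498, 601 and 429 CPM in eNOS-/- mice. Cyp2e1 at 6 months had 233, 154 and 114 CPM, against 534, 595, 429 and 550 CPM. The groups did not overlap at either age. At 3 weeks of STZ it had 174, 64.9, 88.4, 84.2 and 223 CPM, against 500, 633, 784 and 614 CPM without STZ. At 24 weeks it had 91.5, 109, 99.1, 161 and 77.9 CPM with STZ, against 505, 487, 692, 391 and 402 CPM without. The log2 changes were -1.32 ± 0.23, -1.88 ± 0.29, -2.43 ± 0.32 and -2.24 ± 0.30 (SE; edgeR adjusted p from 0.000151 to 0.00179).

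Cyp2a4 (chromosome 7, 26307190 to 26315088) had 41.2, 12.9, 76.5, 31.9 and 68.9 CPM in eNOS-/- db/db mice at 3 months, against 93.9, 101, 136, 213 and 166 CPM in eNOS-/- mice. Cyp2a4 at 6 months had 25.3, 21.7 and 18.2 CPM, against 101, 152, 164 and 195 CPM. The gap between the groups was wider at 6 months than at 3 months, but the difference between the ages did not pass (log2 -1.32, edgeR adjusted p = 0.229). At 3 weeks of STZ it had 73.5, 29.5, 37.9, 36.7 and 74.2 CPM, against 118, 133, 211 and 114 CPM without STZ. At 24 weeks it had 47.5, 50.7, 68.8, 67.7 and 43.1 CPM with STZ, against 114, 214, 159, 159 and 160 CPM without. The log2 changes were -1.71 ± 0.36, -3.03 ± 0.48, -1.63 ± 0.28 and -1.58 ± 0.27 (SE; edgeR adjusted p from 0.000643 to 0.0115). The Cyp2a4 transcript is 98.2% identical to that of Cyp2a5, and 1 gene lies on the opposite strand, so its counts are uncertain. Cyp2a5 itself was not called in any of the 4 comparisons.

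Cyp2d26 rose at 3 months in the type 2 model, with 65.9, 82.4, 127, 40 and 76.0 CPM in diabetic libraries, against 24.6, 30.4, 23.3, 27.2 and 32.9 CPM in controls (log2 change 1.42, edgeR adjusted p = 0.00332). Its log2 changes of 0.26, 0.86 and 0.81 in the other comparisons did not pass. Cyp2d12 fell at 6 months, with 10, 3.12 and 0.298 CPM, against 18.9, 30.8, 41.3 and 40 CPM (log2 change -2.97, edgeR adjusted p = 0.00596), and at 3 weeks of STZ, with 2.84, 0.903, 1.63, 10.1 and 4.31 CPM, against 10.6, 36.6, 13.4 and 12.7 CPM without STZ (log2 change -2.33, edgeR adjusted p = 0.0267). The 3-week call of Cyp2d12 was lost in 7 of 15 alternatives, among them without STZ library 1, 2 or 3 or control library 2. Cyp2d9, a testosterone 16α-hydroxylase of male mouse liver, fell at 6 months, with 37.8, 19.7 and 27.9 CPM, against 44.6, 52.3, 70.2 and 53.0 CPM (log2 change -1.18, edgeR adjusted p = 0.0246), a call lost in 4 of 13 alternatives, among them without diabetic library 2 or 3 or control library 3. Cyp1b1 was not called, with log2 changes of 0.71, 0.48, 0.19 and 0.09.

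Of the enzymes of sterols and bile acids, 6 genes with 4 tested, Cyp7b1 fell the most. Cyp7b1 (chromosome 3, 18071950 to 18243338), the oxysterol 7α-hydroxylase, which also acts on steroids such as dehydroepiandrosterone, had 2.49, 0.517, 2.91, 4.25 and 1.97 CPM in eNOS-/- db/db mice at 3 months, against 18.5, 25.3, 30.7, 27.8 and 24.8 CPM in eNOS-/- mice. At 6 months it had 4.08, 1.13 and 1.64 CPM, against 16.8, 21, 28.9 and 27.0 CPM. Diabetic and control libraries were far apart at both ages. At 3 weeks of STZ it had 5.31, 2.32, 3.58, 5.69 and 12.1 CPM, against 30.8, 43.7, 65.5 and 37.9 CPM without STZ. Cyp7b1 at 24 weeks had 5.97, 0.167, 0.384, 1.90 and 0.932 CPM with STZ, against 11.9, 26.9, 26.1, 22.8 and 12.5 CPM without. The log2 changes were -3.49 ± 0.37, -3.52 ± 0.48, -3.05 ± 0.61 and -3.51 ± 0.64 (SE; edgeR adjusted p from 1.51e-05 to 0.00692).

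Cyp27a1 was the 1 P450 gene whose diabetic change differed between the models. At 6 months it had 21.8, 23.4 and 9.70 CPM in eNOS-/- db/db mice, against 37.7, 47.0, 42.1 and 41.4 CPM in eNOS-/- mice (log2 change -1.40 ± 0.24 SE, edgeR adjusted p = 0.000835). At 24 weeks it had 27.7, 28.2, 34.8, 36.5 and 38.4 CPM with STZ, against 34.6, 27.1, 27.5, 40.6 and 42.0 CPM without (log2 change -0.06, edgeR adjusted p = 0.953). The type 2 libraries were separate and the type 1 libraries overlapped. The difference of the 2 changes was -1.34 ± 0.28 (edgeR adjusted p = 0.0286), 1 of 45 P450 genes tested (2.22%, against 0.438% of all genes, 0.178% higher and 0.259% lower), between mice of 6 and 8 months of age. It was lost without diabetic library 3 or control library 3 or 4 of the type 2 model, and without control library 1 or STZ library 5 of the type 1 model. All 12 podocyte markers were called lower at 6 months in type 2, against 11.7% of all genes. None of the 12 was called at 24 weeks in type 1, and the part of podocyte RNA in the Cyp27a1 difference was not tested. Cyp27a1 also fell at 3 weeks of STZ (log2 change -0.62, edgeR adjusted p = 0.0279), a call lost in 9 of 15 alternatives, among them without STZ library 1, 2, 3 or 4 or control library 1, 2 or 4.

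Cyp26b1, which breaks down retinoic acid, rose at 6 months in the type 2 model. It had 21.4, 14.3 and 16.6 CPM in diabetic libraries, against 1.66, 7.14, 1.74 and 2.65 CPM in controls (log2 change 2.17, edgeR adjusted p = 0.0338). The groups did not overlap, but the call was lost in 6 of 13 alternatives, among them without diabetic library 1 or 3 or control library 1, 3 or 4. Its log2 changes in the other comparisons, -0.77, 0 and 1.70, did not pass, and at 3 weeks 2 of the 4 controls stood at 22.9 CPM. None of the 5 enzymes of steroid hormone synthesis passed the filter on low counts.

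No P450 gene was called for a change of the diabetic effect with age. The shares of all genes in this paragraph are those of edgeR on all libraries. Shares under DESeq2 or without single libraries are not given here, so the calls under them do not show whether P450 genes stand out. In the type 2 model, 6 against 3 months, 0 of 41 passed (0% of all genes; 11 of the 41 had an unadjusted p under 0.05, against 3252 of all 17180 genes, and DESeq2 called 2, Cyp26b1 and Cyp27a1). In the type 1 model, 24 against 3 weeks, 0 of 38 passed (0% of all genes; 6 with an unadjusted p under 0.05, against 1092 of all 16279 genes, and 1, Cyp2c44, by DESeq2). Between the models early, 0 of 45 passed (0.94% of all genes; 5 with an unadjusted p under 0.05, a smaller share than the 2586 of all 18511 genes, and 1, Cyp4f14, by DESeq2). In the controls at 6 against 3 months, 0 of 41 passed (0% of all genes; 5 with an unadjusted p under 0.05, against 540 of all 17180 genes, and 1, Cyp4a14, by DESeq2). Leaving out single libraries gave calls for Cyp2s1 (diabetic library 4 at 3 months), for Cyp2s1, Cyp27a1 and Cyp4f17 (diabetic library 2 at 6 months) in the type 2 change with age, and for Cyp4f14 or Cyp2e1 (STZ library 4 or 5 at 3 weeks) between the models. For the 6 genes called throughout, the differences between the models were -0.46 to 1.21 early and -1.45 to 0.79 late on the log2 scale, and none passed.

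The make-up of the P450 pool changed with diabetes. The summed CPM of all 85 genes averaged 1331 ± 279 in diabetic and 2142 ± 372 in control libraries at 3 months, and 1354 ± 207 and 2255 ± 252 at 6 months (SD). It averaged 1649 ± 434 with STZ and 2642 ± 526 without at 3 weeks, and 1542 ± 285 and 2300 ± 350 at 24 weeks. The 5 genes that fell throughout made up 30.4 ± 5.91% of that sum in diabetic and 61.8 ± 4.01% in control libraries at 3 months, and 23.2 ± 4.23% and 60.0 ± 1.93% at 6 months. In the type 1 model they made up 19.3 ± 5.67% with STZ and 62.0 ± 2.18% without at 3 weeks, and 22.1 ± 5.75% and 57.9 ± 5.16% at 24 weeks. Cyp4a10, Cyp4a14, Cyp4a31 and Cyp4a32 together made up 16.7 ± 2.83% in diabetic and 5.22 ± 0.607% in control libraries at 3 months, and 34.1 ± 8.44% and 7.31 ± 1.29% at 6 months. Their share was 33.4 ± 6.68% with STZ and 6.41 ± 1.60% without at 3 weeks, and 32.1 ± 9.21% and 6.70 ± 1.80% at 24 weeks. Whole kidney of an eNOS-/- control had 65.7% in the 5 genes and 7.74% in the Cyp4a genes. These shares describe genes picked by their change, so they carry no test.

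**Figure D4:**
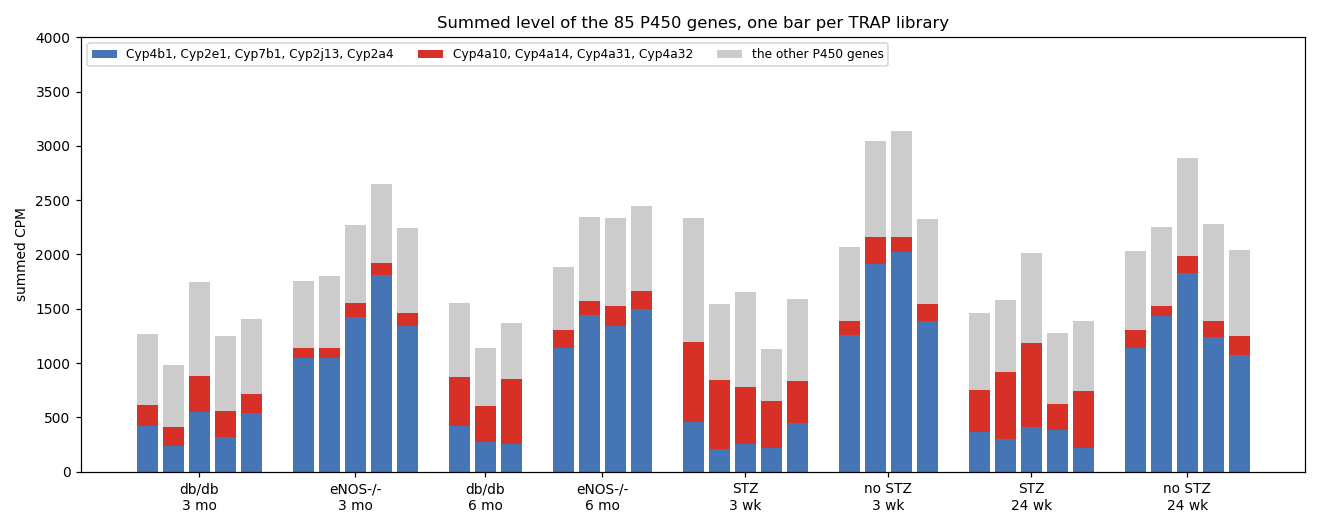
Summed CPM of the 85 P450 genes, 1 bar per TRAP library, split into the 5 genes lower in all 4 comparisons (blue), the Cyp4a genes (red) and the other P450 genes (grey). Blue fills 52.4 to 68.3% of each control bar and 13.8 to 38.3% of each diabetic bar.

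Markers of the proximal tubule also fell in diabetic libraries, mainly at 6 months and at 3 weeks. Of the 20 markers, 0 rose and 3, 11, 10 and 1 fell at 3 months, 6 months, 3 weeks and 24 weeks, with median log2 changes of -0.193, -0.988, -0.681 and -0.277. Their sum was 5105 to 11956 CPM in diabetic and 8728 to 12867 CPM in control libraries at 3 months, 4886 to 10415 and 10743 to 12609 CPM at 6 months, 6744 to 13305 and 11897 to 19163 CPM at 3 weeks, and 7479 to 13517 and 10566 to 14406 CPM at 24 weeks. Among other cell types, 0, 7, 5 and 0 of 10 macrophage markers rose, as did 2, 5, 3 and 1 of 6 markers of the parietal epithelium and 2, 4, 2 and 0 of 8 markers of mesangium and smooth muscle. Of 10 endothelial markers, 0, 1, 1 and 0 rose and 1, 1, 0 and 0 fell. Of 10 markers of the thick ascending limb, distal tubule and collecting duct, 0, 1, 1 and 1 rose and 0, 2, 0 and 0 fell. Of 12 podocyte markers, 1, 12, 0 and 0 fell. Of all genes tested, 2.03%, 11.2%, 3.78% and 0.448% were called higher in the same order. The shares called lower were 1.96%, 11.7%, 2.72% and 0.448%. Set against the marker sum, Cyp4b1 stood at 16.8 ± 4.98 CPM per 1000 CPM of tubule markers in diabetic and 57.8 ± 5.73 in control libraries at 3 months, 15.3 ± 5.35 and 47.6 ± 6.05 at 6 months, 12.6 ± 1.13 and 47.2 ± 5.26 at 3 weeks, and 15.1 ± 3.21 and 45.3 ± 6.36 at 24 weeks. Cyp4a14 stood at 11.6 ± 6.86 and 0.881 ± 0.245 at 3 months, 40.2 ± 29.0 and 2.03 ± 1.17 at 6 months, 22.0 ± 5.60 and 1.75 ± 1.07 at 3 weeks, and 19.4 ± 7.98 and 1.80 ± 1.28 at 24 weeks. On this scale the groups of all 6 genes stayed apart in all 4 comparisons, except Cyp2a4 at 3 weeks, at 3.64 to 7.91 with STZ and 6.94 to 13.3 without. These 6 genes were picked by their change, so this separation carries no test. The share of all genes that stay apart on this scale was not computed. Cyp2j5 overlapped on this scale at 3 months, with 20.2 to 33.4 in diabetic and 28.0 to 34.4 in control libraries.

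**Figure D5:**
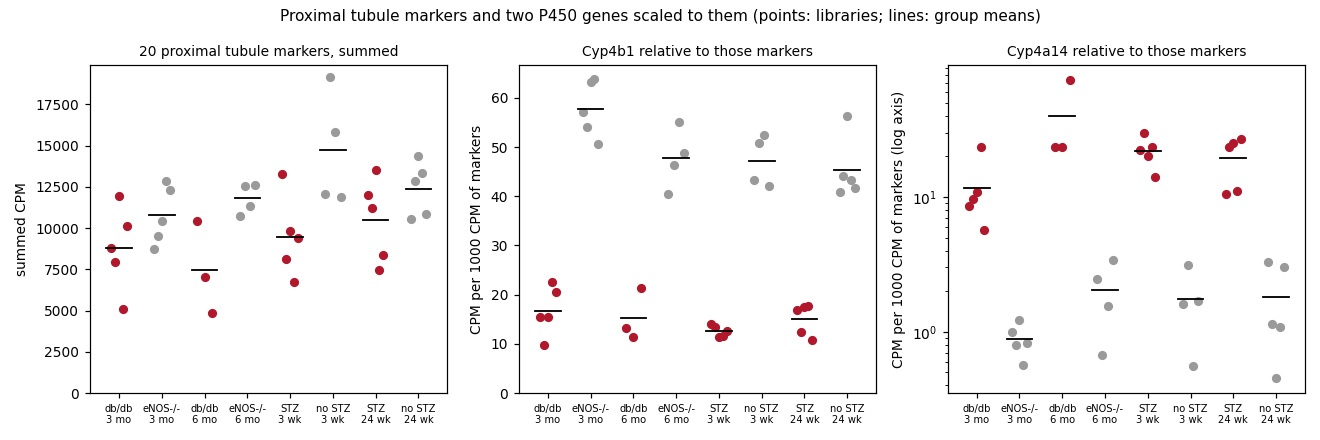
Left, summed CPM of 20 proximal tubule markers; middle and right (log axis), Cyp4b1 and Cyp4a14 in CPM per 1000 CPM of those markers; points are TRAP libraries (red diabetic, grey control) and lines are group means. The marker sums overlap at 3 months, 3 weeks and 24 weeks, while both genes stay apart in every pair.

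Several genes known to depend on androgen in mouse kidney fell alongside. Of the 8 listed, 0 rose and 6, 6, 5 and 3 fell at 3 months, 6 months, 3 weeks and 24 weeks, with median log2 changes of -2.32, -2.31, -2.17 and -1.90. Of all genes tested, 1.96%, 11.7%, 2.72% and 0.448% were called lower in that order. Kap, the kidney androgen-regulated protein, averaged 471 ± 277 CPM in diabetic and 3320 ± 197 CPM in control libraries at 3 months and 130 ± 46.7 and 2393 ± 797 CPM at 6 months. It averaged 128 ± 183 CPM with STZ and 1994 ± 710 CPM without at 3 weeks, and 94.1 ± 112 and 2305 ± 595 CPM at 24 weeks. Kap, the organic anion transporter Slco1a1 and Cyp4a12a, an arachidonic acid hydroxylase outside the symbol rule, fell in all 4. Cyp4a12b, also listed, was not called higher, but its mean was higher in diabetic than in control libraries in all 4. It averaged 3.81 ± 1.12 against 2.26 ± 0.19 CPM at 3 months and 3.88 ± 1.6 against 3.67 ± 0.806 CPM at 6 months (SD), where the groups overlapped. At 3 weeks it averaged 6.28 ± 2.67 against 3.31 ± 2.1 CPM, and at 24 weeks 7.78 ± 7.1 against 2.47 ± 0.893 CPM. The 24-week mean was raised by STZ library 1 at 20.3 CPM. The rest of that group had 3.45 to 6.07 CPM, against 1.35 to 3.4 CPM in controls. Whether the P450 genes and this list changed for a shared cause was not tested.

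Partners and regulators of P450 enzymes are read against 3.99%, 22.9%, 6.5% and 0.897% of all genes called at 3 months, 6 months, 3 weeks and 24 weeks. Of 9 redox partners 1, 3, 1 and 0 were called: Cyb5a, the cytochrome b5 that donates electrons to P450s, fell at 3 months (log2 -0.52), 6 months (-1.10) and 3 weeks (-0.81), Pgrmc1 fell (-0.73) and Cyb5r3 rose (0.58) at 6 months. Por, the main electron donor, averaged 122 ± 33.2 CPM in diabetic and 144 ± 43.1 CPM in control libraries at 3 months and was not called in any of the 4. Of 13 genes of haem synthesis and breakdown, 1, 3, 3 and 0 were called, all lower but Blvra, which rose at 3 weeks (0.77). Cpox fell at 3 months (-0.75) and 3 weeks (-1.0), Uros fell at 6 months (-1.0) and 3 weeks (-1.13), and Hmox2 and Blvrb fell at 6 months. Of 20 transcription factors, 17 were tested, and 1, 5, 2 and 0 were called. Esr1 fell at 3 months (-1.0), 6 months (-0.61) and 3 weeks (-1.72), and Ppara, which encodes PPARα, fell at 3 weeks (-1.10), when Cyp4a14 and Cyp4a10 were higher. At 6 months Ahr (1.53) and Nr1i2 (1.53) rose and Nr1h3 and Rxrb fell.

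Of 10 enzymes that share arachidonic acid and epoxides with the P450s, Ephx2, the soluble epoxide hydrolase, fell at 3 months (log2 -0.83), 6 months (-0.57) and 3 weeks (-0.87). Ephx1, the microsomal epoxide hydrolase, fell at 6 months (-1.21) and rose at 3 weeks (1.16). Alox15 fell at 3 months (-3.28), while Alox5, Alox12, Ptgs1 and Ptges rose at 6 months (4.97, 1.08, 1.11 and 1.62) and Alox5 rose at 3 weeks. None of the 10 was called at 24 weeks. These calls are read against the same shares of all genes as those of the partners and regulators. Macrophage markers rose in the same comparisons as Alox5, an enzyme of white blood cells, and their part in it was not tested.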

How the data were processed

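Podocyte TRAP RNA and 1 whole-kidney total RNA library were sequenced. The authors deposited raw read counts per gene and FPKM for 37 libraries. Per the labels' protocols, a NuGEN kit was used with fragmentation to 200 bp, and per the submitters' processing notes cutadapt 1.16, STAR, FastQC and featureCounts 1.15.2 were used. The deposited FPKM values were the counts divided by length and total (tolerance 0.001, 100% of values). The notes name mm9, but all 85 genes overlap their GRCm38 place in GENCODE release 21, so positions are GRCm38. The sources used here do not give the strand setting or the treatment of reads from close copies.

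Libraries were grouped by the labels. Counts of all genes entered edgeR 4.0.16 under R 4.3.3 (TMM, default filter by group, robust quasi-likelihood, Benjamini-Hochberg over all genes, threshold 0.05): 17 type 2 libraries, 19 type 1 libraries, and all 36 for comparisons between models. The steps were tested on simulated data. Members and gene lists were chosen with earlier results of these data known. Named are all called members (up to 12 a direction per diabetic comparison), the highest by FPKM, the extremes of the ratio to kidney, and a fixed set of 10. Alternatives used DESeq2 1.42.0, its size factors, other filters, a replicate block, fits of the compared groups, and leaving out each library. Identity between transcripts is from blastn 2.17.0+ on GENCODE transcripts, promoters are from RefSeq, and plots are from matplotlib 3.10.9. Intervals cover counting error only, since reads carry no molecular identifiers.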

Additional observations from a re-analysis of the deposited data

Results flagged for a closer look

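For 12 P450 genes, the highest and lowest library of every group of 4 or 5 was set against the rest of its group. In 84 such sets, 6 held a library beyond the 95% critical value of Dixon's test, which chance alone gives in about 1 set in 20. Cyp4a10 was at 119 CPM in diabetic library 3 at 3 months, the highest of its group, and at 38.5 CPM in control library 2 of the 24-week group, the lowest of its group. Cyp1b1 was at 24.6 CPM in that same control library, the lowest, and at 233 CPM in diabetic library 4 at 3 months, the highest and 1 of the libraries that stand apart. Cyp27a1 was at 21.8 CPM in STZ library 4 at 3 weeks, the lowest, in the library with the fewest genes detected. Cyp2d26 was at 71.2 CPM in control library 2 of the 3-week group, the highest. The late diabetic effect on Cyp27a1 differed between the type 2 and type 1 models by -1.34 on the log2 scale, tested as an interaction.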

How the results depend on the processing

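The numbers of called P450 genes were within 1.5 times the reported number in the 4 diabetic comparisons, except without diabetic library 3 at 6 months, when 9 were called in place of 15. Leaving out libraries gave 0 to 3 calls for the change of the diabetic effect with age in type 2, 0 to 1 for the early difference between models, 0 to 2 for the late difference and 1 to 2 for the type 1 controls with age. DESeq2 called 2 and 1 for the change with age in type 2 and type 1, 1 for the early difference between models, and 1 and 2 for the controls with age in type 2 and type 1. A fit of the compared groups alone called 1 for the type 2 controls with age. The shares of all genes called under these alternatives are not given here, so the counts do not show whether P450 genes stand out. Same-numbered libraries correlated at -0.099 to 0.204 after removal of group means. These weak correlations do not settle whether the numbers pair libraries. Under a replicate block the late difference between models fell to 0 calls, and no other count moved beyond 1.5 times. A block could not be fitted for the controls with age. Directions turned for Cyp26b1 at 3 months (-1.047 to 0.027 without single libraries) and at 3 weeks, where the change is near 0 (-0.01 with DESeq2 size factors, -0.013 with DESeq2, -0.009 with a filter of 10 counts, -0.012 with the compared groups, -0.343 to 0.551 without single libraries). They turned at 24 weeks for Cyp1b1 (-0.167 to 0.243) and Cyp27a1 (-0.128 to 0.012) without single libraries. Leaving out diabetic libraries 4 and 5 at 3 months together, an alternative chosen after seeing the data, lost Cyp2j5 among the named calls, and the scale on tubule markers was also chosen then. The causes of these moves were not tested.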
